A study of Mus musculus with 6 samples.

Results

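The YAP and TEAD target genes described here are 31 genes known from other work to be switched on by YAP and its DNA-binding partners, taken without the CCN, thrombospondin and caveolae genes. They were found by symbol among the 55401 genes of the deposited table. All 31 passed the filter on low counts, as did 18218 genes in all. The comparison was between primary mouse chondrocytes, the cells that make cartilage, with Nf2 knocked out and control cells, in 3 poly(A) RNA libraries of each. Both groups derived from mice carrying the floxed Nf2 allele (Nf2 f/f), and the cells were cultured with differentiation. All library names carry D7, with cKO for the knockout and CTL for the control libraries, and what D7 stands for is not stated. How Cre was driven or delivered, the strain, age and sex of the animals, and whether each library had its own animal or culture are not stated in the labels. The p-values therefore reflect the spread among 6 libraries, and that spread may be technical only. The treatment label of the knockout libraries names TCF21 overexpression and that of the control libraries reads control, yet Tcf21 had 2 counts in all 6 libraries together. Groups were taken from the sample titles.

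Nf2 encodes merlin, a membrane-linked protein that helps switch on the kinases of the Hippo pathway. Those kinases phosphorylate the coactivators YAP and TAZ and hold them in the cytoplasm. When phosphorylation is low, YAP and TAZ enter the nucleus, bind TEAD transcription factors, and raise genes of growth, adhesion and the cytoskeleton. Several of those targets encode Hippo components themselves, which gives the pathway negative feedback. In cartilage, YAP and TAZ are known to affect the proliferation and maturation of chondrocytes.

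Values are CPM, read counts divided by library size and scaled with TMM factors, listed in the order of replicates 1 to 3, and changes are log2 ratios of knockout over control from edgeR's quasi-likelihood test, adjusted over all genes tested by the method of Benjamini and Hochberg. A gene is said to have risen or fallen where its adjusted p was under 0.05. Library totals ran from 50906043 to 63748798 counts. Nf2 itself measured 87.9, 101 and 97.3 CPM in the knockout libraries, and 126, 133 and 122 CPM in the control libraries. Its mean was 24.9% below the control mean, with an adjusted p of 0.0305 by edgeR that passed 0.05 in 0 of the 6 fits that left out a single library. The exact two-sided permutation test gave p = 0.1, the smallest that 3 against 3 libraries allow. These counts cover the whole gene, and which exons were deleted is not stated in the labels. The chondrocyte markers were mixed in direction, with 2 of 15 genes rising, 1 falling, and a median log2 change of -0.15. These are shares of 13.3% and 6.67%, where 4.11% of all tested genes rose and 5.18% fell. Summed, the chondrocyte markers reached 1058 to 1987 CPM in the knockout libraries and 920.4 to 1370.1 CPM in the control libraries. Col2a1, the main cartilage collagen, rose (log2 change 1.33), as did Col10a1, the collagen of hypertrophic cartilage (2.35), while Col9a2, a minor cartilage collagen, fell by 1.55. Acan, the main cartilage proteoglycan, and Sox9, the transcription factor of chondrocytes, were present at 3.55 to 15.5 CPM and 14.4 to 27.6 CPM over the 6 libraries and did not pass the test.

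Of the 31 target genes, 7 rose and 4 fell. The risen genes were Slit2, Ankrd1, Crim1, Fscn1, Pdlim2, Myof and Axl. The genes that fell were Sgk1, Bicc1, Tgm2 and Marcks. That is 22.6% of the members rising, where 4.11% of all tested genes rose, and 12.9% falling, where 5.18% of all tested genes fell. The members were chosen with earlier results of these data known, so these shares are a description and not an independent test. Only Slit2 and Ankrd1 changed by at least 2-fold among the 11. Before adjustment, 13 members had p under 0.05 and were higher in the knockout libraries, beside 11.6% of all tested genes, and 4 were lower, beside 13.2%. The 3 knockout libraries all lay above the 3 control libraries for 16 members, beside 15.5% of all tested genes, and all below them for 4 members, beside 17.4%. Altogether 22 members had a log2 change above 0 and 9 below. Their median was 0.27, where the median over all tested genes was -0.01. With limma on log2(FPKM + 1), 7 members rose, with Ajuba called and Slit2 not, and 1 fell, Sgk1. Over all genes, rises made up 44.2% of the calls by edgeR (749 rises, 944 falls) and 62.5% by limma on log2(FPKM + 1) (960 rises, 577 falls).

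**Figure D1:**
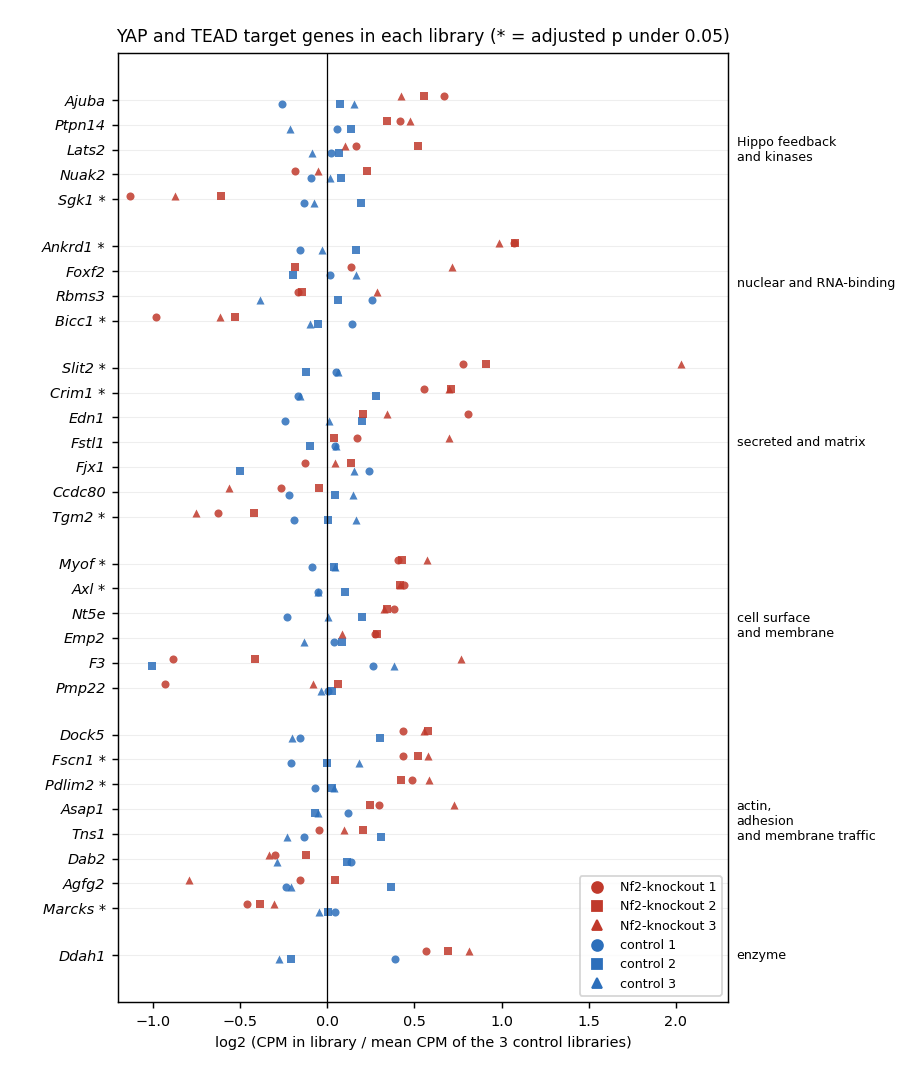
Each of the 31 target genes in each of the 6 libraries, as log2 of its CPM over the mean CPM of the 3 control libraries (x axis), with the genes grouped by role. Red symbols are the Nf2-knockout libraries, blue symbols the control libraries, and the symbol shape gives the replicate. An asterisk marks the 7 genes that rose and the 4 that fell. The 3 red symbols lie to the right of all blue symbols for 16 genes and to the left for 4.

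Of the changed genes, 4 had a TEAD core in the DNA before their start site, and those stretches are shown because TEAD proteins recruit YAP to DNA at such sites. The letters searched were GGAATG on either strand, so that the reverse strand reads CATTCC. Sequences are the 250 bases before the start site, 5′ to 3′ on the strand of the gene, from RefSeq on GRCm38.p6, and capitals mark the TEAD core. They lie at chr19:36119845-36120094 on the minus strand for Ankrd1, chr17:78199998-78200247 on the plus strand for Crim1, chr7:25788734-25788983 on the minus strand for Axl and chr10:21993640-21993889 on the plus strand for Sgk1.
Ankrd1: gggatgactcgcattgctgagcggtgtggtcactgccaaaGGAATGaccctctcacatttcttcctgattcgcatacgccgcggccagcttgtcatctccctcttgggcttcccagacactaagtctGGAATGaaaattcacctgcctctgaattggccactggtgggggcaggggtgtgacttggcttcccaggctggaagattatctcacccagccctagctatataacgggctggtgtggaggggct
Crim1: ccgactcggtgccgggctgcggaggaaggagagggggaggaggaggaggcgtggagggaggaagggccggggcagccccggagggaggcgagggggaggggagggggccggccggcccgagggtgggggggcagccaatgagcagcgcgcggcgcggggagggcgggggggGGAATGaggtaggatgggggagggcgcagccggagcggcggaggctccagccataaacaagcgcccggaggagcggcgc
Axl: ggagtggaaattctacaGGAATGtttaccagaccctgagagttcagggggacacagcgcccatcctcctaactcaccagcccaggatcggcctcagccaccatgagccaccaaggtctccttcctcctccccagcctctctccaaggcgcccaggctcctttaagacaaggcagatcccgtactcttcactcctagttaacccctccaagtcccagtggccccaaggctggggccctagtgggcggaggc
Sgk1: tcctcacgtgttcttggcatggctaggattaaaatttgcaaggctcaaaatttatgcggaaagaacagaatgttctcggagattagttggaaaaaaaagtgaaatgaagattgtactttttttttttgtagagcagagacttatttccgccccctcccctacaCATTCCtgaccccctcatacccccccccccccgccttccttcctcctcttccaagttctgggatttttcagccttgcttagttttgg
Ankrd1 held 2 copies, at -210 and -123 bases from the start site, both reading GGAATG on the gene's own strand. Crim1 had its copy at -79 and Axl at -233, on the same strand as the gene. In Sgk1, which fell, the copy at -87 lay on the opposite strand and in 1 of 6 annotated windows of that gene. The start site used for Axl was not found in a transcript of the GENCODE M21 annotation.

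Windows of 300 bases (250 before and 50 after the start) were listed for 22 of the 31 members. In 10 of these 22 genes (45.5%) at least 1 window held the TEAD core, beside 16.6% of all 27025 genes with a window and 14.9% of the tested genes with one. By window, the share was 30.3% of 33 member windows and 14.7% of all 32851 windows. Among risen members with a window it was found in 3 of 6, and among those that fell in 1 of 1. The other genes with a core were Ajuba, Ptpn14, Edn1, Pmp22, Lats2 and Dab2, none of which passed the test. Ajuba held 2 copies, at -186 and -164, and its start site too was not found in a GENCODE M21 transcript. The copies in Lats2 and Dab2 lay just after the start site, at 5 and 22 bases. A second motif, TGANTCA, is bound by AP-1, a factor that often sits beside TEAD. It was found in 1 of the 22 genes, F3, in 2 copies at -146 and -135, where 8.97% of all genes with a window held it. These matches describe the letters in the windows and are not evidence of binding.

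**Figure D2:**
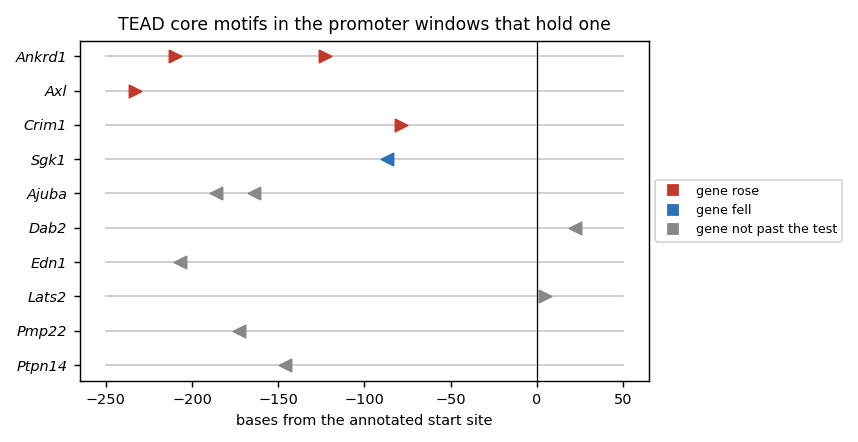
Position of each TEAD core (x axis, bases from the annotated start site) in the 10 target genes whose promoter window held one. Triangles point right where the motif reads on the gene's strand and left where it reads on the opposite strand, in red for genes that rose, blue for the gene that fell and grey for genes not past the test. Cores of the 3 risen genes lie from -233 to -79 bases, and that of Sgk1 at -87.

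Of the 5 members grouped as Hippo feedback and kinases, Sgk1 fell and 0 rose by edgeR. Axl, a receptor kinase that rose, was placed with the cell-surface members. In the group of 5, Ajuba and Ptpn14 were higher at an unadjusted p under 0.05 (edgeR) and called by DESeq2. Lats2, Ajuba and Ptpn14 were higher in all knockout libraries. Lats2, a kinase that phosphorylates YAP, measured 112, 144 and 108 CPM in the knockout libraries and 102, 105 and 94.3 CPM in the control libraries (log2 change 0.27 ± 0.13 SE, adjusted p = 0.235, edgeR). By the annotation, 42.4% of its exon bases are shared with a predicted gene on the same strand that had 0 counts in every library. Ajuba, a LIM-domain protein that binds and restrains LATS kinases, stood at 32.2, 29.8 and 27.2 CPM against 16.9, 21.3 and 22.6 CPM. All 3 knockout values exceeded the highest control value. Its log2 change was 0.55 ± 0.14 (SE), with an adjusted p of 0.0540 by edgeR, and it passed the threshold with median-of-ratios (RLE) factors (0.0477), with DESeq2 (0.00924) and with limma on log2(FPKM + 1) (0.0369). Ptpn14, a phosphatase that binds YAP and keeps it out of the nucleus, gave 99.6, 94.6 and 103 CPM against 77.4, 82.0 and 64.3 CPM (0.41 ± 0.11 SE, adjusted p = 0.0625, edgeR). The groups stood apart here too, and DESeq2 called the gene at an adjusted p of 0.0223.

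Nuak2, a kinase related to AMPK and linked to myosin activity, overlapped between groups at 27.2, 36.2 and 29.9 CPM in the knockout libraries and 29.0, 32.6 and 31.3 CPM in the control libraries. Its log2 change was 0.0052 ± 0.13 (SE). Sgk1, the serum- and glucocorticoid-regulated kinase, fell by 0.86 ± 0.16 (SE) on the log2 scale (adjusted p = 0.0195, edgeR). It measured 471, 676 and 562 CPM in the knockout libraries and 939, 1178 and 977 CPM in the control libraries, so even the highest knockout library lay below the lowest control library. Sgk1 was also among the most abundant members per length, with a mean of 183 FPKM in the control libraries and 108 FPKM in the knockout libraries. The gene lies at chr10:21882184-21999893 (GRCm38, plus strand).

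The nuclear and RNA-binding members were Ankrd1, which rose, Bicc1, which fell, and Foxf2 and Rbms3, which did not pass the test. Ankrd1, an ankyrin-repeat protein widely used as a readout of YAP activity, measured 21.4, 21.5 and 20.2 CPM in the knockout libraries and 9.15, 11.4 and 9.98 CPM in the control libraries. The lowest knockout library was well above the highest control library, and libraries within each group differed little. Its log2 change was 1.04 ± 0.13 (SE), with an adjusted p of 0.00601 (edgeR). It was the only member called in all 6 fits that left out a library, at adjusted p-values from 0.0188 to 0.0313. Per length, Ankrd1 went from a mean of 3.06 FPKM in control to 6.78 FPKM in knockout libraries. It lies at chr19:36111961-36119910 on the minus strand.

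Bicc1, an RNA-binding protein that represses translation of its target transcripts, gave 50.6, 69.3 and 65.5 CPM in the knockout libraries and 110.5, 96.7 and 93.6 CPM in the control libraries. The groups did not overlap, and the gene fell by 0.70 ± 0.14 (SE) on the log2 scale (adjusted p = 0.0247, edgeR). Foxf2, a forkhead transcription factor, was low throughout, at 4.02, 3.21 and 6.02 CPM against 3.69, 3.19 and 4.10 CPM, and knockout replicate 3 was the one high value. Its adjusted p was 0.609 (edgeR). Rbms3, an RNA-binding protein, ranged from 9.89 to 13.5 CPM in knockout and from 8.49 to 13.3 CPM in control libraries.

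Among the 7 secreted and matrix members, Slit2 and Crim1 rose and Tgm2 fell. Slit2, a secreted ligand of ROBO receptors that guides axons and migrating cells, measured 20.3, 22.3 and 48.3 CPM in the knockout libraries and 12.3, 10.9 and 12.4 CPM in the control libraries. Knockout replicate 3 was far above the other two, and all 3 lay above the controls. The log2 change of Slit2, the largest among members by edgeR, was 1.36 ± 0.33 (SE) with an adjusted p of 0.0474 (edgeR). Without knockout replicate 3 it was 0.86, with an adjusted p of 0.0327, and leaving out any other library ended the call, at up to 0.149. By limma Slit2 was not called. There its log2 change was 0.56 on log2(FPKM + 1) (adjusted p = 0.122, limma), below the 0.94 of Ankrd1. The added 1 narrows the change more for Slit2, at 0.402 FPKM in control, than for Ankrd1, at 3.06 FPKM. On log2(FPKM + 0.1) the change of Slit2 was 1.17 (adjusted p = 0.0850, limma). Without the low-count filter the adjusted p of Slit2 was 0.0575 (edgeR). Markers of pericytes and smooth muscle summed to 913 CPM in knockout replicate 3, 614 and 585 CPM in the other knockout libraries and 412 to 463 CPM in the controls. Acta2, smooth muscle actin, made up 529 CPM of the 913. Of the 11 tested markers, Acta2, Rgs5, Notch3 and Cnn1 were highest in that library, whereas Cspg4 and Mcam were lowest there among the knockout libraries and Abcc9 among all 6. Other marker lists also set knockout replicate 3 apart. Chondrocyte markers summed to 1058 CPM there, against 1841 and 1987 CPM in the other knockout libraries. Mesothelial markers summed to 98.1 CPM there, against 212 and 192 CPM. The fibroblast matrix sum of 9874.5 CPM lay between those of the other knockout libraries. The part of any of these cell types in the value of Slit2 was not tested. Slit2 had the lowest level per length of all members, at 0.402 FPKM in control and 1.11 FPKM in knockout libraries.

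Crim1, a transmembrane protein with cysteine-rich repeats that binds BMPs, stood at 100.4, 112 and 111 CPM against 60.9, 82.9 and 61.4 CPM. Control replicate 2 was the highest control and still below every knockout library. The log2 change was 0.66 ± 0.14 (SE) with an adjusted p of 0.0305 (edgeR). Tgm2, a transglutaminase that crosslinks matrix proteins, gave 59.9, 68.9 and 54.8 CPM against 80.9, 92.5 and 104 CPM and fell by 0.59 ± 0.13 (SE) on the log2 scale (adjusted p = 0.0332, edgeR). In the annotation 8.03% of its exon bases lie opposite exons of Rprd1b, and without knowing whether the counting was stranded, reads there cannot be told apart. Crim1 likewise shares 2.05% of its exon bases with Fez2 on the opposite strand.

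The remaining secreted members did not pass the test. Edn1, the vasoactive peptide endothelin 1, measured 10.6, 7.0 and 7.71 CPM in the knockout libraries and 5.14, 6.97 and 6.13 CPM in the control libraries. Knockout replicate 2 lay just above control replicate 2, the highest control, and the log2 change of 0.47 ± 0.22 (SE) had an adjusted p of 0.235 (edgeR). Fstl1, a secreted glycoprotein of the matrix, stood at 395, 361 and 571 CPM against 362, 328 and 364 CPM, with knockout replicate 3 high and knockout replicate 2 below the highest control. Ccdc80, a secreted matrix protein and the most abundant member per length at 186 FPKM in control, overlapped at 764, 887 and 619.9 CPM against 789, 947 and 1018 CPM. Fjx1, a secreted relative of the fly Four-jointed kinase that acts on the Fat and Dachsous cadherins, ranged from 3.39 to 4.07 CPM and from 2.61 to 4.37 CPM.

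Of the 6 members at the cell surface or in membranes, Axl and Myof rose. Axl, a receptor tyrosine kinase for the ligand Gas6, measured 386, 379.7 and 380.1 CPM in the knockout libraries and 274, 305 and 274 CPM in the control libraries. The knockout libraries were nearly equal to each other, and all lay above the controls. Its log2 change was 0.43 ± 0.080 (SE), with an adjusted p of 0.0211 (edgeR). Myof, myoferlin, a ferlin that takes part in membrane fusion and repair, stood at 219, 222 and 247 CPM against 156, 170.0 and 171 CPM (0.47 ± 0.086 SE, adjusted p = 0.0202, edgeR). The 2 genes lie at chr7:25757273-25788705 and chr19:37899036-38043577, both on the minus strand.

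Nt5e, the ectoenzyme CD73 that makes adenosine from AMP, measured 23.1, 22.5 and 22.2 CPM in the knockout libraries and 15.1, 20.4 and 17.8 CPM in the control libraries. Emp2, a tetraspan membrane protein, gave 102, 103 and 89.5 CPM against 86.7, 89.5 and 77.1 CPM. Both were higher in all knockout libraries, Emp2 by a margin that vanishes at this rounding, and their adjusted p-values were 0.157 and 0.228 (edgeR). F3, tissue factor, which starts blood clotting, had the largest SE of the 31 members. It measured 20.3, 28.1 and 63.6 CPM in the knockout libraries and 44.9, 18.6 and 48.9 CPM in the control libraries, so that high and low libraries occur in both groups. The log2 change of F3 was -0.0046 ± 0.49 (SE). Pmp22, a tetraspan protein of myelin that is also found outside nerve, stood at 140.3, 279.7 and 253 CPM against 269, 273 and 262 CPM. Knockout replicate 1 alone was low, and without it the log2 change of Pmp22 went from -0.26 to 0.012.

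Of the 8 members of actin, adhesion and membrane traffic, Fscn1 and Pdlim2 rose and Marcks fell. Fscn1, fascin, which bundles actin filaments in cell protrusions, measured 183, 195 and 203 CPM in the knockout libraries and 117, 136 and 154 CPM in the control libraries. The control libraries were spread more widely than the knockout libraries, without overlap. Its log2 change was 0.51 ± 0.11 (SE) with an adjusted p of 0.0362 (edgeR). Pdlim2, an actin-associated protein with a PDZ and a LIM domain, gave 58.9, 56.2 and 63.1 CPM against 40.1, 42.8 and 43.1 CPM, with both groups tight (0.50 ± 0.090 SE, adjusted p = 0.0191, edgeR). Marcks, which binds actin and membrane lipids and is released by protein kinase C, stood at 314, 330.1 and 350.3 CPM against 447, 433 and 418 CPM. Here every knockout library lay below every control library, and the fall was 0.38 ± 0.081 (SE) on the log2 scale (adjusted p = 0.0307, edgeR).

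Dock5, an activator of the GTPase Rac, measured 54.3, 60.0 and 59.0 CPM in the knockout libraries and 36.0, 49.6 and 35.0 CPM in the control libraries. Control replicate 2 was the high control, and without it Dock5 passed the test at an adjusted p of 0.0307, where it was 0.0777 with all 6 libraries (edgeR). Asap1, an Arf GTPase-activating protein of focal adhesions, stood at 114, 110.1 and 154 CPM against 101, 88.6 and 89.5 CPM (adjusted p = 0.110, edgeR). Groups overlapped for the rest of these members. Tns1, tensin 1, which ties integrins to actin, ranged from 389 to 463 CPM in knockout and from 342 to 497 CPM in control libraries. Dab2, a clathrin adaptor, ranged from 122 to 141 CPM and from 126 to 169 CPM, and Agfg2, an Arf GAP family protein, from 14.9 to 26.7 CPM and from 22 to 33.5 CPM. The enzyme Ddah1, which breaks down an inhibitor of nitric oxide synthases, measured 58.9, 64.2 and 70.0 CPM against 52.1, 34.4 and 32.8 CPM. Its log2 change of 0.69 ± 0.19 (SE) had an adjusted p of 0.0662 (edgeR), which became 0.0192 without control replicate 1, the high control.

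**Figure D3:**
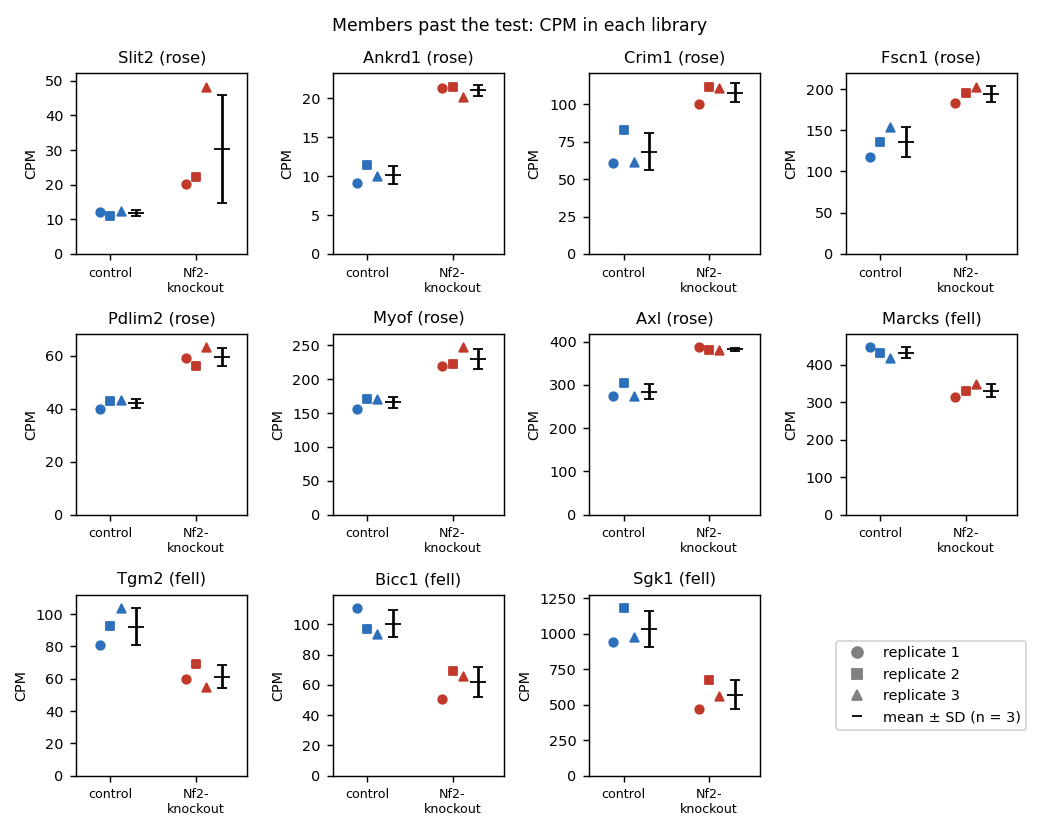
CPM (y axis, from 0) in each of the 3 control libraries (blue) and 3 Nf2-knockout libraries (red) for the 7 target genes that rose and the 4 that fell. Symbol shape gives the replicate, and the bar beside each group is the mean ± SD (n = 3). The groups do not overlap for any of the 11 genes, and Slit2 has 1 knockout library at 48.3 CPM beside 20.3 and 22.3 CPM.

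Per length, the members ranged widely in level. In the control libraries the members spanned from 0.402 FPKM for Slit2 to 186 FPKM for Ccdc80, with a median of 9.91 FPKM where the median of all tested genes was 2.55 FPKM. Of the 31, 25 were above that median and 7 were above the 90th percentile. The 4 genes that fell were all abundant, at percentiles from 80.0 for Bicc1 to 98.6 for Sgk1. The risen genes stood at lower and higher percentiles alike, from 21.8 for Slit2 and 53.9 for Ankrd1 to 93.0 for Fscn1 and 94.5 for Axl. Over all 31 members, the sums of 4393, 5028 and 4872 CPM and of 4812, 5369.7 and 4988 CPM overlapped. The abundant Sgk1 and Ccdc80 weigh heavily in that sum. Knockout replicate 3 was the highest of the 6 libraries for 11 members, where it was highest for 18.2% of all tested genes.

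**Figure D4:**
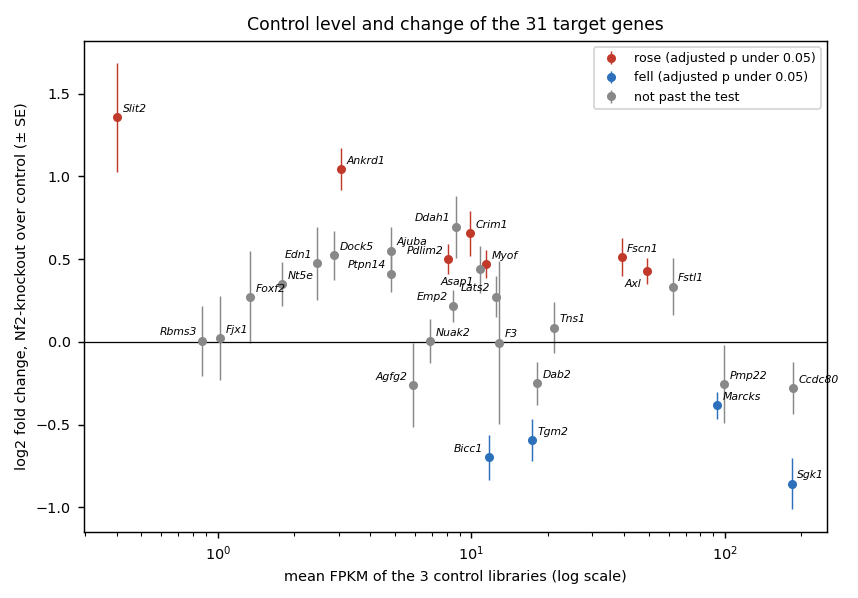
Control level of each of the 31 target genes (x axis, mean FPKM of the 3 control libraries, log scale) against its log2 change in the Nf2-knockout libraries (y axis, with bars of ± 1 SE). Red genes rose, blue genes fell and grey genes did not pass the test. The 4 blue genes lie at or above 11.7 FPKM, and the 2 largest rises, Slit2 and Ankrd1, are at 0.402 and 3.06 FPKM.

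The upstream pathway and other known targets were read from the same test. Of 31 genes of the Hippo and YAP/TEAD machinery, 30 were tested, and 3 rose and 3 fell. The risen genes were Wwc2, a relative of KIBRA (log2 change 0.46), Rassf1, which binds the MST kinases (0.75), and Tead4 (1.89). Those that fell were Nf2, the gene knocked out (-0.41), the atypical cadherin Dchs1 (-1.49) and Amot, a junctional protein that binds YAP (-0.45). With a library left out, the call of Dchs1 held in 6 of 6 fits, that of Rassf1 in 2, that of Amot in 1 and those of Nf2 and Wwc2 in 0. Yap1 measured 122, 122 and 131 CPM in the knockout libraries and 119, 118 and 112 CPM in the control libraries (log2 change 0.10, adjusted p = 0.491, edgeR). Wwtr1, which encodes TAZ, had a log2 change of -0.0081 with an adjusted p of 0.975 (edgeR). Among the TEAD genes, Tead4 was low, at 6.72, 11.3 and 9.77 CPM against 3.15, 2.08 and 2.29 CPM, and it was called in all 6 fits that left out a library. Tead2 and Tead3 changed by -0.24 and 0.24 on the log2 scale, with adjusted p-values of 0.227 and 0.271 (edgeR).

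Tead1 stood apart from every other gene of that list in its spread. It measured 69.1, 21.1 and 89.1 CPM in the knockout libraries and 2.97, 76.4 and 2.12 CPM in the control libraries. Control replicate 2 lay within the range of the knockout libraries, and the other controls were low but detected, at 176 and 121 counts. The adjusted p was 0.647 with all 6 libraries (edgeR). Without control replicate 2 the log2 change went from 1.14 to 4.55, with an adjusted p of 0.0308. Of 12 other YAP and TEAD targets, listed apart from the 31, 5 rose (41.7%, beside 4.11% of all tested genes) and 1 fell (8.33%, beside 5.18%). The risen genes were Cavin2 (log2 change 2.53), Thbs1 (1.49), Ccn2 (1.05), Cav2 (1.04) and Cavin1 (0.70), which code for caveolae and matricellular proteins, and the stress-response gene Gadd45a fell by 1.25. Ccn1 had a log2 change of 0.30 with an adjusted p of 0.0946 (edgeR). All 6 of these calls held in each fit that left out a library, as did that of Ankrd1 alone among the 31 members.

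Markers of other cell types differed between the groups as well. In bulk RNA, fewer cells of a type and less RNA per cell cannot be told apart. Beside the counts below, 4.11% of all tested genes rose and 5.18% fell. Of 12 macrophage and myeloid markers, 5 fell, with sums of 42.6 to 104 CPM in knockout and 152 to 414 CPM in control libraries. Of 10 genes of fibroblast matrix, 2 fell, with sums of 8606 to 10886 CPM and 12426 to 15879 CPM. Pericyte and smooth muscle genes gave 3 rises and 1 fall among 11 tested of 12, with sums of 585 to 913 CPM and 412 to 463 CPM, and Higd1b was at 0. Mesothelial genes gave 3 rises among 4 tested of 6, with sums of 98.1 to 212 CPM and 20.5 to 25.8 CPM, and Lrrn4 was at 0. Msln made up most of these sums, at 88.6 to 201 CPM in knockout and 18.3 to 24.2 CPM in control libraries. Wt1 had 0 counts in every knockout library and at most 12 in a control library. The part of these cell types in the changes of the 31 genes was not tested. Endothelial genes were low, at 6.25 to 10.7 CPM and 3.60 to 7.93 CPM, with 1 rise among 7 tested of 9. Summed osteoblast, tendon, Schwann and skeletal muscle genes overlapped between the groups, and Myod1 was at 0.

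Beyond Ankrd1, the calls among the 31 genes rested on having all 6 libraries. With 5 libraries, the number that rose ran from 1 to 4 and the number that fell from 0 to 3. Calls over all tested genes dropped as well, from 9.29% with all 6 libraries to between 3.33% and 6.29%. Without knockout replicate 1, Ankrd1 was the one member called, and without knockout replicate 3 Ankrd1 and Slit2 were. Without knockout replicate 2, the calls were Ankrd1, Myof and Pdlim2 up and Sgk1, Bicc1 and Tgm2 down. Leaving out control replicate 1 kept Ankrd1, Sgk1 and Tgm2, and leaving out control replicate 2 kept Ankrd1, Crim1 and Axl. Leaving out control replicate 3 kept Ankrd1, Myof, Fscn1, Pdlim2, Sgk1 and Marcks. The adjusted p-values of the 10 other called members ran from 0.0184 to 0.149 over these fits (edgeR). No called member changed direction in any of them, and only for Slit2 did the log2 change move by more than 1.5 times.

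**Figure D5:**
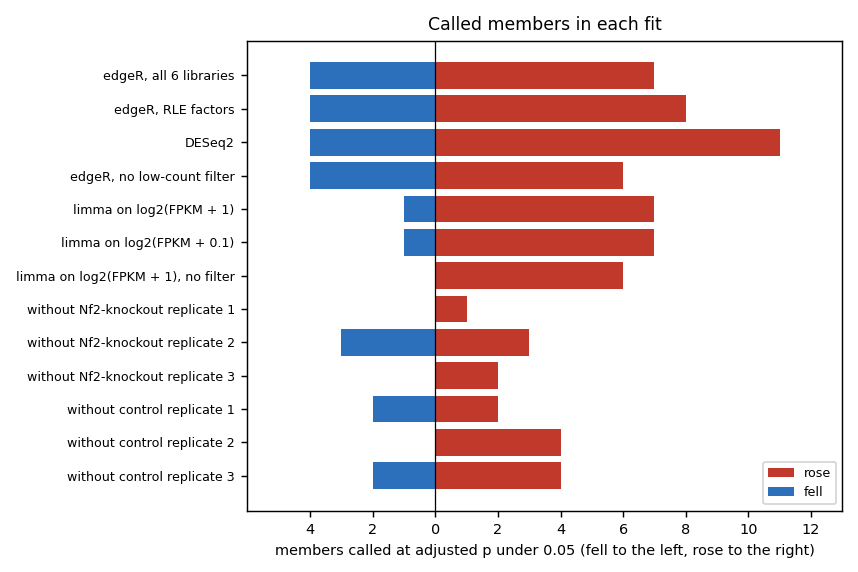
Number of the 31 target genes called at an adjusted p under 0.05 (x axis, rises to the right in red, falls to the left in blue) with all 6 libraries and with other scalings or tests or a library left out (y axis). Rises run from 1, without Nf2-knockout replicate 1, to 11 with DESeq2, and falls from 0 to 4. The fit with the replicate block, which gave 4 rises and 1 fall, is not drawn.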

How the data were processed

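The 6 libraries, 3 Nf2-knockout and 3 control, were grouped by sample title. The authors deposited a table that gives each gene a read count and an FPKM value, a level per transcript length and depth, in each library. How the deposited counts were made is not stated. Cutadapt 1.9, HISAT2 2.0.4, StringTie 1.3.4d and edgeR appear in the submitters' processing notes, without roles, and no genome build does. Positions equal those of GENCODE M21 (GRCm38) for 94.2% of 55141 genes and for 25 of the 31 members.

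The counts were tested with edgeR 4.0.16 in R 4.3.3, using filterByExpr, TMM factors and a quasi-likelihood fit (glmQLFit, glmQLFTest) with the group as its single term. Tests were two-sided, p-values were adjusted over 18218 genes (Benjamini-Hochberg), and the threshold was 0.05. Fold changes carry a prior count of 0.125, and each SE is the absolute log2 change over the square root of F. Alternatives were RLE factors, DESeq2 1.42.0, no filter beyond 1 count in all, limma 3.58.1 on log2(FPKM + 1) or log2(FPKM + 0.1) for genes with a mean FPKM of at least 0.1, the former without that filter, a replicate block, and leaving out each library. The scripts were tested on simulated data. Promoter windows came from RefSeq tables, matched by symbol.

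The members, role groups, pathway and marker lists were chosen with earlier results of these data known. By the rule for named genes, all members are named, and every library is given for those past the test, those whose groups do not overlap and 7 central targets. Outside the members the rule takes Nf2, Yap1, Wwtr1, Tead1 to Tead4, Ccn1, Ccn2 and pathway genes past the test. The other members given per library and the single marker genes were added after their values were seen.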

Additional observations from a re-analysis of the deposited data

How the results depend on the processing

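RLE factors gave 8 members that rose and 4 that fell, and edgeR without the low-count filter 6 and 4. DESeq2 gave 11 that rose, adding Ajuba, Ptpn14, Dock5 and Ddah1. In all it called 2618 of 27103 genes (9.66%), where edgeR called 1693 of 18218 (9.29%). limma gave 1 member that fell on log2(FPKM + 1) and on log2(FPKM + 0.1) and 0 without the filter. Without the filter it called 1063 of 27103 genes in all (3.92%). The median log2 change of the members was 0.36 on log2(FPKM + 0.1), where the median over all genes in that fit was 0.087. By edgeR these medians were 0.27 and -0.01. In the 3 limma fits, 2 pathway genes fell in place of 4.

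With the replicate block, 4 members rose (Ankrd1, Crim1, Myof and Fscn1), 1 fell (Sgk1), 2 pathway genes fell and 923 genes were called in all. The deviations of same-numbered libraries from their group means correlated at -0.0895, 0.0296 and 0.0234, and 2 of 6 libraries correlated best with their own number, so the numbers were not taken to pair the libraries.

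Leaving out 1 library at a time gave 629 to 1186 called genes, 1 to 4 members that rose, 0 to 3 that fell, 6 to 8 pathway genes that rose, 2 to 3 that fell, and a median member change of 0.28 to 0.36. Members called with all 6 libraries kept their direction under every alternative listed here. Of the members not called, 7 turned, with log2 changes from -0.26 to 0.27. F3 (-0.0046) gave 0.0093 with RLE factors, 0.011 with DESeq2, 0.0020 without the filter, 0.041 on log2(FPKM + 1) with and without the filter, and 0.043 on log2(FPKM + 0.1). Nuak2 gave -0.0036 with the replicate block. With a library left out, F3 ran from -0.62 to 0.31, Nuak2 from -0.11 to 0.11, Foxf2 from -0.012 to 0.46, Rbms3 from -0.15 to 0.15, Fjx1 from -0.17 to 0.16, Pmp22 from -0.44 to 0.012 and Tns1 from -0.017 to 0.27. Wwtr1 gave 0.0071 with RLE factors, 0.0084 with DESeq2, 0.093 on log2(FPKM + 1) with and without the filter and 0.097 on log2(FPKM + 0.1), and from -0.061 to 0.079 with a library left out. The cause was not tested.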
